A study of Homo sapiens with 6 samples.

Results

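Fatty acid synthesis and fatty acid beta-oxidation were followed here through 39 genes out of 36459 gene symbols in the count table. The genes were picked by symbol for their place in these pathways, with earlier results of these data known. They comprised 7 genes of synthesis (FASN, ACACA, ACACB, ACLY, ACSS2, MCAT and OXSM), 3 of fatty acid activation (ACSL1, ACSL5 and ACSL6), and 2 regulators (PPARA and PPARGC1A). The other 27 formed the oxidation arm, with 5 genes of carnitine transport, 13 of mitochondrial beta-oxidation, 6 of peroxisomal beta-oxidation and 3 of electron transfer. RNA was sequenced from PC9, an established human non-small cell lung cancer line whose growth depends on mutant EGFR, to ask which pathways separate its drug-tolerant persister state from its parental state. The parental group held 3 libraries from 3 separate cultures grown without drug. The persister group held 3 libraries of cells that had spent 6 days with erlotinib, which blocks the kinase of EGFR, at 15 µM, and these were pooled from 9 separate cultures. Both groups shared the same medium, and the cells came from a single line. In bulk libraries of this kind, a change in the number of cells that express a gene and a change in the RNA per cell cannot be told apart.

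Cytosolic fatty acid synthesis starts from acetyl-CoA, which ACLY makes from citrate and ACSS2 from acetate. The acetyl-CoA carboxylases ACACA and ACACB turn it into malonyl-CoA, and FASN builds palmitate from both. To be burned, a fatty acid is first joined to coenzyme A by an ACSL enzyme, carried into mitochondria as a carnitine ester by CPT1, SLC25A20 and CPT2, and then shortened in repeated cycles of dehydrogenation, hydration, dehydrogenation and thiolysis. Malonyl-CoA inhibits CPT1, so synthesis and oxidation are held apart. Very long and branched chains are shortened in peroxisomes, and electrons from the mitochondrial acyl-CoA dehydrogenases pass through the flavoprotein ETFA-ETFB and then ETFDH to ubiquinone.

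The libraries held between 29476725 and 34893782 gene counts. Of 14626 genes that passed the expression filter, 8307 were changed between the groups at an adjusted p-value under 0.01, 4193 higher and 4114 lower in persister cells, so more genes were called than not. The median log2 fold change of all genes tested was -0.006. The label of an epithelial cancer line was checked with 9 epithelial marker genes, all detected, with a summed level of 8324 to 8960 CPM (normalised read count, scaled to a common library size) in the parental and 6617 to 6990 CPM in the persister libraries. Of the 6 adipocyte markers FABP4 was at 0 in every library and the summed level reached at most 1.18 CPM, and of the 6 hepatocyte markers APOA1 and CYP3A4 were at 0 and the sum reached at most 0.676 CPM. Of the 7 blood cell markers CD3E and HBB were at 0, and CD68 carried most of a sum of 75.2 to 77.2 CPM in parental and 19.7 to 22.9 CPM in persister libraries. Of the 7 fibroblast markers COL3A1 was at 0, and COL1A1 carried most of a sum of 10.46 to 11.02 CPM and 27.4 to 30.8 CPM. The 5 endothelial markers summed to 8.282 to 8.999 CPM in parental and 3.73 to 4.27 CPM in persister libraries. PECAM1 was at -4.35 on the log2 scale, and CDH5, at -0.35, was not called. VWF, KDR and TEK were not tested. Their mean levels were 0.254, 0.147 and 0.078 CPM in parental and 0.352, 0.331 and 0.176 CPM in persister libraries. Transcripts encoded in mitochondrial DNA took 1.9% to 3.37% of the counts in parental and 3.39% to 3.96% in persister libraries. Among the 15 proliferation genes 9 were higher and 2 lower, with summed levels of 2404 to 2496 CPM in parental and 2916 to 2942 CPM in persister libraries, and the part of these differences in the results given here was not tested.

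Most of the fatty acid genes that changed were lower in persister cells. Of the 39 genes 35 passed the filter, and of these 8 (22.9%) were higher, 16 (45.7%) were lower and 11 were not called (edgeR quasi-likelihood test, Benjamini-Hochberg adjusted p under 0.01). In all genes tested 56.8% were called, 28.7% as higher and 28.1% as lower. These shares are the background for the count of each list of genes given here. The share called lower was thus above that of all genes and the share called higher below it, a description with no test of the difference. The median log2 fold change of the 35 genes was -0.16. The 3 libraries of each group did not overlap in normalised read count for 28 of the 35 genes (80%), near the 71.3% of all genes tested. A fall of at least 1.5-fold was called for 6 of them, FASN, ACADS, ETFB, ACSS2, ACACA and ACSL1 (12.6% of all genes tested), and a rise of that size for 2, ACADL and ACACB (11.4% of all genes tested). The 39 genes together took 0.276% to 0.294% of the counts of a parental library and 0.216% to 0.221% of those of a persister library.

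**Figure D1:**
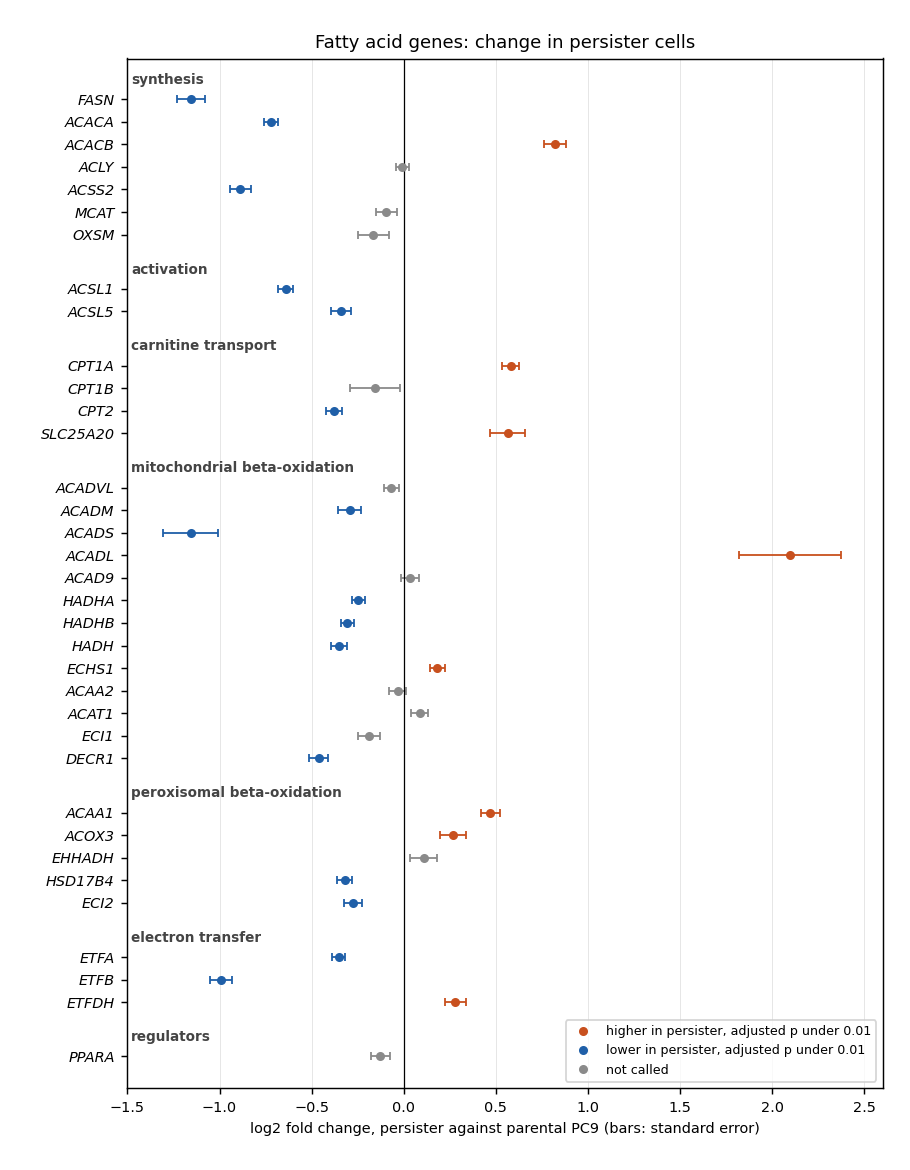
Log2 fold change of persister against parental PC9 cells (horizontal axis, points with bars of 1 standard error) for the 35 tested genes, grouped by role, with 3 libraries per group. Blue points mark the 16 genes called lower, orange points the 8 called higher and grey points the 11 not called. The points run from -1.16 for FASN and ACADS to 2.10 for ACADL.

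In the synthesis arm, 3 of 7 genes were lower, 1 was higher and 3 were not called, with a median log2 fold change of -0.16. FASN (chromosome 17, 82078338 to 82098294, GRCh38), the synthase that builds palmitate, had 414.2, 526.3 and 474.2 CPM in the 3 parental libraries and 215, 198.2 and 221.2 CPM in the 3 persister libraries. All persister libraries lay below all parental ones, and the log2 fold change was -1.16 (standard error, SE, 0.0760, adjusted p = 2.12e-07). ACSS2 (chromosome 20, 34872146 to 34927962), which makes acetyl-CoA from acetate, stood at 54.5, 61.1 and 56.5 CPM in parental and 29.6, 30.8 and 32.5 CPM in persister libraries. Its groups did not overlap either, and its log2 fold change was -0.89 (SE 0.0565, adjusted p = 1.64e-07). ACLY (chromosome 17, 41866917 to 41930542), the other source of cytosolic acetyl-CoA, gave 242.9, 254.2 and 246.9 CPM in parental and 248.7, 245.2 and 246.2 CPM in persister libraries. These groups overlapped, and the difference of -0.008 on the log2 scale had a SE of 0.0340. MCAT and OXSM, which load and condense malonyl units in the separate mitochondrial synthesis pathway, were not called, at log2 fold changes of -0.09 (SE 0.0581) and -0.16 (SE 0.0854). OXSM shares 21.65% of its annotated exon bases with NGLY1 on the opposite strand, and the counting is not known to use strand.

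The RNAs of the acetyl-CoA carboxylases moved in opposite directions. ACACA (chromosome 17, 37084992 to 37406836, minus strand), the cytosolic enzyme that feeds FASN, had 193.1, 185.9 and 196.8 CPM in parental and 118, 113.2 and 118.5 CPM in persister libraries, a log2 fold change of -0.72 (SE 0.0388, adjusted p = 4.56e-08). ACACB (chromosome 12, 109116587 to 109268226), the mitochondrial form known for the malonyl-CoA that inhibits CPT1, had 9.94, 9.58 and 9.83 CPM in parental and 17.3, 17.0 and 17.6 CPM in persister libraries, a log2 fold change of 0.82 (SE 0.0603, adjusted p = 5.05e-07). For both genes the libraries of one group all lay on the same side of the other group. Per length of transcript, ACACA was 10.2, 10.8 and 12.2 times the level of ACACB in the parental libraries and 3.61, 3.89 and 4.34 times its level in the persister libraries (exact permutation p = 0.1, two-sided, the smallest that 3 against 3 libraries allow). ACACA thus remained the more abundant carboxylase RNA in all 6 libraries.

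Transcript usage within a gene could be tested for 31 of the 39 genes, and only that of ACACA changed. In the test used, diffSpliceDGE, the Simes adjusted p of ACACA was 0.000127. Over all genes 198 of 10545, or 1.88%, were called for usage. Leaving out a library in turn kept the adjusted p of ACACA between 0.000276 and 0.00978. The transcripts start at separate promoters, and the windows of the upstream and the downstream start are shown because their shares of the counts differed between the groups. Both are RefSeq windows of GRCh38.p14 on the minus strand, from 250 bases before to 50 bases after the start, at chr17:37406787-37407086 and chr17:37359047-37359346, and capitals mark the letters ATTGG, the CCAAT box read on the other strand.
ACACA upstream start: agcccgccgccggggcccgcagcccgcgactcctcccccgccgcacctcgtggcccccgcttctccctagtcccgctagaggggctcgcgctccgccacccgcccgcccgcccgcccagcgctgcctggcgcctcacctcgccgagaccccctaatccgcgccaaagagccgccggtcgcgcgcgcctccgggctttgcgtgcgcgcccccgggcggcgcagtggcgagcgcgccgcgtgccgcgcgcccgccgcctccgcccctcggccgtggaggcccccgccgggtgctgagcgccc
ACACA downstream start: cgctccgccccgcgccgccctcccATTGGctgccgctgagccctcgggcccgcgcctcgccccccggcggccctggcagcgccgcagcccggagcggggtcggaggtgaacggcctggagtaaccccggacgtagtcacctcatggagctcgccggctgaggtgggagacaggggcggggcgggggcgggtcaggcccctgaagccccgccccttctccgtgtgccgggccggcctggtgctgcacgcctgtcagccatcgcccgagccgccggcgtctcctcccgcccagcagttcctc
The starts lie 47740 bases apart. The upstream window is 82.3% G and C and has no match to the CCAAT box, and the downstream window is 77.3% G and C with a match at 226 bases before the start.

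Transcripts that begin within 100 bases of the upstream ACACA start took 4.51%, 6.62% and 7.0% of the ACACA transcript counts in the 3 parental libraries and 16.2%, 20.8% and 15.9% in the 3 persister libraries. The groups did not overlap, and the means were 6.04% ± 1.34 and 17.6% ± 2.74 (SD, n = 3, exact permutation p = 0.1, the smallest possible). In counts these were 290, 384 and 443 in parental and 546, 716 and 616 in persister libraries. Transcripts annotated to ACACA held 95.44% of its gene counts over all libraries, and the rest entered none of these shares. The downstream start held the larger share in every library, with 91.8%, 84.6% and 88.2% in parental and 82.5%, 75.8% and 79.8% in persister libraries (exact permutation p = 0.1). ACACA-231, the most counted transcript of the downstream start, fell by 0.88 on the log2 scale (SE 0.0828, adjusted p = 0.00149, edgeR test across transcripts). ACACA-237, which begins at the upstream start, had a log2 fold change of 0.84 (SE 0.188) and, at an adjusted p of 0.0315, was not past the limit. Its usage within the gene changed, with a coefficient of 1.07 on the natural log scale relative to the change of ACACA as a whole.

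**Figure D2:**
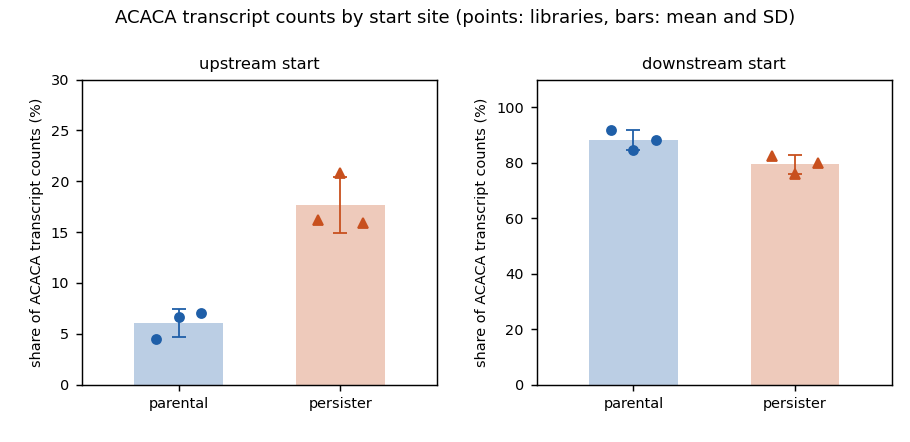
Share of ACACA transcript counts (vertical axis, percent) that fell on transcripts of the upstream start (left panel) and of the downstream start (right panel), with points for the 3 parental and 3 persister libraries, and bars for the mean with its SD. The upstream share was 4.51% to 7.0% in parental and 15.9% to 20.8% in persister libraries, and the panels have different vertical scales.

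Both tested genes of fatty acid activation were lower. ACSL1 (chromosome 4, 184755595 to 184826818), which joins long-chain fatty acids to coenzyme A, had 98.7, 102.3 and 97.3 CPM in parental and 64.4, 61.7 and 65.2 CPM in persister libraries. The groups were apart, with a log2 fold change of -0.64 (SE 0.0411, adjusted p = 1.74e-07). ACSL5, a related synthetase of the mitochondrial and reticular membranes, had 37.2, 35.6 and 38.3 CPM in parental and 27.6, 30.6 and 29.5 CPM in persister libraries, a log2 fold change of -0.34 (adjusted p = 0.000200). ACSL6 was not tested and had counts of 4, 6 and 6 in parental and 2, 2 and 6 in persister libraries.

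Carnitine transport was split, with 2 genes higher, 1 lower and 1 not called. CPT1A (chromosome 11, 68754620 to 68844410), the widely expressed form of the carnitine palmitoyltransferase that controls entry of long chains into mitochondria, had 70.2, 76.2 and 72.1 CPM in parental and 112.5, 105.3 and 108.8 CPM in persister libraries. All persister libraries were higher, with a log2 fold change of 0.58 (SE 0.0447, adjusted p = 7.57e-07). SLC25A20 (chromosome 3, 48856926 to 48898904), the carrier that moves acylcarnitines across the inner membrane, had 5.35, 4.82 and 5.85 CPM in parental and 7.57, 7.94 and 8.14 CPM in persister libraries, a log2 fold change of 0.56 (SE 0.0950, adjusted p = 0.000322). CPT2 (chromosome 1, 53196792 to 53214197), which turns the acylcarnitine back into acyl-CoA inside, had 53.6, 52.0 and 53.6 CPM in parental and 40.2, 42.4 and 39.9 CPM in persister libraries, a log2 fold change of -0.38 (SE 0.0440, adjusted p = 1.94e-05). For each of these 3 genes the groups did not overlap.

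Within a library, the length-scaled level of CPT1A was 0.849, 0.888 and 0.864 times that of CPT2 in the parental group and 1.7, 1.45 and 1.6 times in the persister group, so the order of these genes turned. The ratio of SLC25A20 to CPT2 was 0.152, 0.143 and 0.166 in parental and 0.29, 0.287 and 0.311 in persister libraries. Neither ratio overlapped between the groups (exact permutation p = 0.1 each). CPT1B, the muscle form, was not called, at a log2 fold change of -0.16 (SE 0.136). It shares 66.36% of its exon bases with the readthrough gene CHKB-CPT1B on the same strand, so its counts are uncertain. CPT1C, the brain form, was not tested, with counts of 1, 5 and 4 in parental and 7, 2 and 4 in persister libraries.

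**Figure D3:**
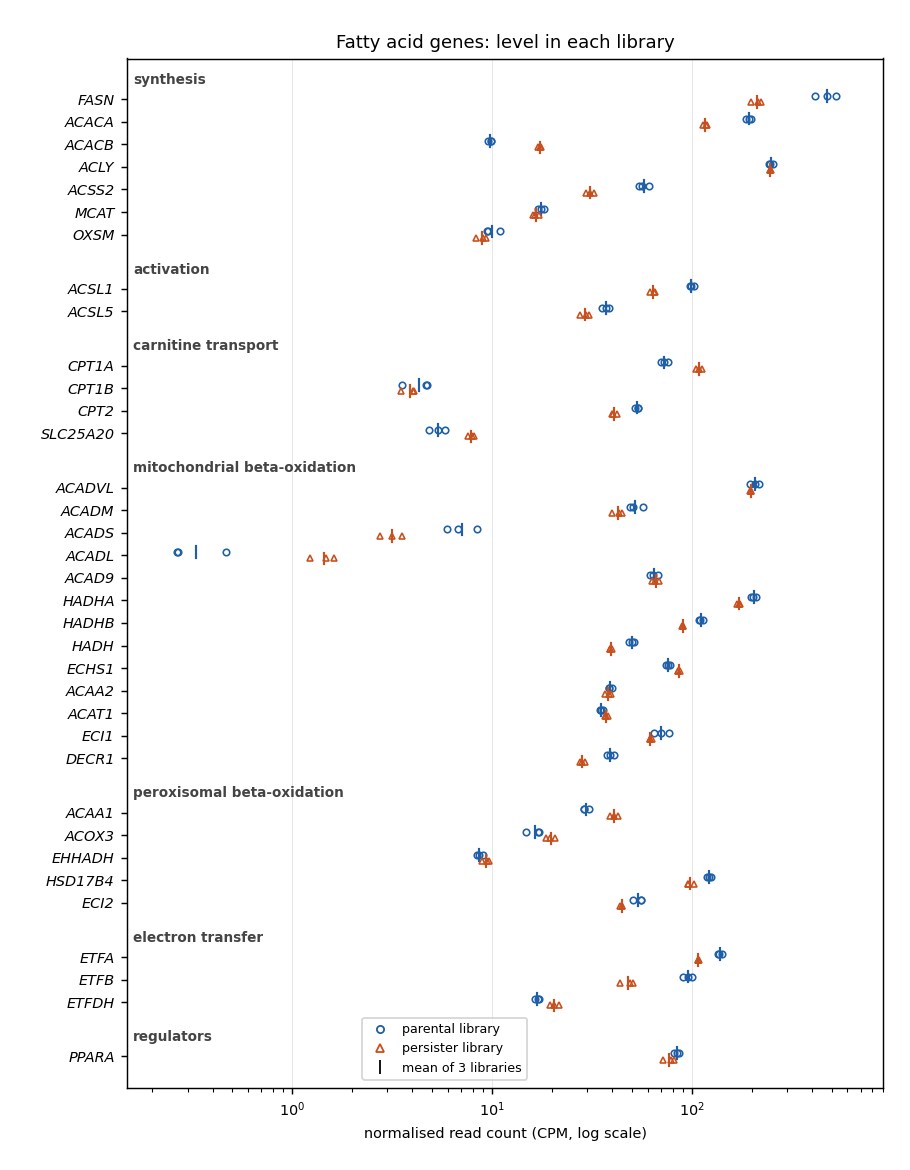
Normalised read count (CPM, logarithmic axis) of the 35 tested genes in each of 3 parental libraries (circles) and 3 persister libraries (triangles), with a short line at each mean, grouped by role. FASN spans 414.2 to 526.3 CPM in parental and 198.2 to 221.2 CPM in persister libraries, and ACADL lies near the bottom of the scale.

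Of the 13 genes of mitochondrial beta-oxidation 6 were lower, 2 were higher and 5 were not called, with a median log2 fold change of -0.19. Beside these, 13 genes that track mitochondrial mass (import receptors, porins, chaperones and inner membrane proteins) had 6 members higher and 4 lower, a median of 0.05, and summed levels of 2866 to 2948 CPM in parental and 2907 to 2930 CPM in persister libraries, so that the ranges of the groups overlapped. The acyl-CoA dehydrogenases open each cycle and differ in the chain length they accept, and their RNAs did not move together. ACADVL, for very long chains, was not called and had 196.1, 215.9 and 206.3 CPM in parental and 196.7, 195.5 and 197.9 CPM in persister libraries, which overlapped. ACADM, for medium chains, had 56.8, 49.1 and 50.6 CPM in parental and 44.6, 43.1 and 40.0 CPM in persister libraries. The groups did not overlap for ACADM, and its log2 fold change of -0.29 had an adjusted p of 0.00164, which became 0.0108 without persister replicate 3.

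ACADS (chromosome 12, 120725774 to 120740008), the short-chain dehydrogenase, showed the largest fall among the tested genes of the oxidation arm. It had 5.93, 8.43 and 6.77 CPM in parental and 2.74, 3.15 and 3.54 CPM in persister libraries. The groups were apart, with a log2 fold change of -1.16 (SE 0.149, adjusted p = 4.36e-05). ACADL (chromosome 2, 210187126 to 210225447), the long-chain dehydrogenase, which is little used in many human tissues, had only 16, 9 and 9 counts in parental and 43, 51 and 42 counts in persister libraries. Its log2 fold change was 2.10 (SE 0.276, adjusted p = 5.01e-05), and it lay between 1.96 and 2.42 in the alternatives that gave it a value, while a stricter filter on low counts removed the gene. Counts on ACADL-205, a transcript with no defined coding sequence, were 12, 8 and 8 in parental and 41, 25 and 23 in persister libraries. The protein-coding ACADL-201 had 3, 0 and 0 counts in parental and 0, 25 and 17 in persister libraries, so its persister libraries differed among themselves. ACAD9, which also serves in the assembly of respiratory complex I, had a log2 fold change of 0.03 (SE 0.0479) and was not called, and its sign was negative when counts were scaled to library size or the upper quartile.

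The alpha and beta subunits of the trifunctional protein, HADHA and HADHB, carry out the later steps for long chains. The RNAs of both were lower. HADHA (chromosome 2, 26190635 to 26244672) had 209.4, 203.1 and 197.8 CPM in parental and 172.8, 173.1 and 168.8 CPM in persister libraries, a log2 fold change of -0.25 (SE 0.0364, adjusted p = 0.000124). HADHB (chromosome 2, 26243170 to 26290465) had 113.5, 110 and 109.1 CPM in parental and 88.9, 89.9 and 90.4 CPM in persister libraries, a log2 fold change of -0.31 (SE 0.0366, adjusted p = 2.45e-05). For both subunits the groups were apart. The genes are transcribed away from each other from starts 307 bases apart, and the RefSeq window of HADHA (GRCh38.p14, chr2:26244583-26244882, minus strand) is shown because 194 of its bases, in capitals, also belong to the window of HADHB.
HADHA: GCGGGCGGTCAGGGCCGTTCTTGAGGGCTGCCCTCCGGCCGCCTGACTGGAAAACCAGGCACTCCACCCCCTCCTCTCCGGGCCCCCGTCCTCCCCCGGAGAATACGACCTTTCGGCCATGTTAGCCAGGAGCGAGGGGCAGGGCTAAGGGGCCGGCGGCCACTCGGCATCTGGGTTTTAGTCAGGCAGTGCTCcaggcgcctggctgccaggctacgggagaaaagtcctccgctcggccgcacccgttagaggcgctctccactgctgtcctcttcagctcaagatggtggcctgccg
Per length, the ratio of HADHA to HADHB was 1.31, 1.3 and 1.28 in parental and 1.37, 1.37 and 1.31 in persister libraries, so the groups overlapped (exact permutation p = 0.2), with means of 1.29 ± 0.0162 and 1.35 ± 0.0361 (SD, n = 3). In HADHA 50.7% to 58.7% of the counts lay on transcripts annotated as targets of nonsense-mediated decay, and in HADHB 0%.

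Among the enzymes of the remaining mitochondrial steps, HADH, the dehydrogenase for medium and short chains, fell by 0.35 on the log2 scale (SE 0.0435, adjusted p = 2.98e-05). DECR1, the reductase that prepares unsaturated chains, had 38.7, 37.4 and 40.9 CPM in parental and 27.6, 28.1 and 29.2 CPM in persister libraries. Its groups were apart, and its log2 fold change was -0.46 (adjusted p = 1.26e-05). ECHS1, the short-chain hydratase, was higher by 0.18 on the log2 scale, from 77.4, 75.5 and 74.0 to 85.5, 84.7 and 87.3 CPM without overlap, with an adjusted p of 0.00145. The call for ECHS1 was lost without parental replicate 3 (adjusted p = 0.0126), without persister replicate 3 (0.0114) and with scaling to library size only (0.0113). The thiolases ACAA2 and ACAT1, which split off acetyl-CoA, were not called, at log2 fold changes of -0.03 (SE 0.0463) and 0.09 (SE 0.0443). ECI1, the isomerase that shifts double bonds, was not called at -0.19 (adjusted p = 0.0171), and passed the limit without parental replicate 1 (adjusted p = 0.000549), with library size scaling (0.00604), with upper-quartile scaling (0.00471), with the replicate block (0.00871) and in DESeq2 (0.00991).

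Peroxisomal beta-oxidation was also split, with 2 genes higher, 2 lower and 1 not called among 5 tested. ACAA1 (chromosome 3, 38103129 to 38137242), the peroxisomal thiolase, had 29, 30.7 and 28.7 CPM in parental and 39.0, 42.6 and 40.8 CPM in persister libraries. All persister libraries were higher, with a log2 fold change of 0.47 (SE 0.0515, adjusted p = 1.21e-05). DLEC1 on the opposite strand shares 19.74% of the exon bases of ACAA1. HSD17B4, the bifunctional enzyme for very long and branched chains, had 124.0, 119.4 and 121.5 CPM in parental and 95.1, 102.0 and 95.3 CPM in persister libraries, a log2 fold change of -0.32 (adjusted p = 4.28e-05). ECI2, the peroxisomal isomerase, fell by 0.28 on the log2 scale (adjusted p = 0.000408), and 27.15% of its exon bases lie opposite the pseudogene TEX56P. EHHADH, the other bifunctional enzyme, was not called at 0.11 (SE 0.0747).

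ACOX3, an oxidase for branched chains, rose from 14.9, 17.2 and 17.0 to 18.6, 20.8 and 19.6 CPM, a log2 fold change of 0.27 with an adjusted p of 0.00643. The groups did not overlap, but the call was lost when any of 4 libraries was left out, namely parental replicate 1 (adjusted p = 0.0136), parental replicate 3 (0.0133), persister replicate 2 (0.0324) or persister replicate 3 (0.0226), and likewise with library size scaling (0.0221), upper-quartile scaling (0.0151) and gene counts summed from transcripts (0.0107). ACOX2 did not pass the filter, and its counts of 13, 8 and 19 in parental and 1, 5 and 3 in persister libraries did not overlap. With no filter its log2 fold change was -2.00 (adjusted p = 0.00800), and in the 4 omissions of a library that let it pass, the adjusted p was 0.00337 without parental replicate 2, 0.0302 without persister replicate 1, 0.00842 without persister replicate 2 and 0.0275 without persister replicate 3. Among 18 peroxisome genes (PEX genes, PXMP2, PXMP4 and the catalase gene CAT) 11 were lower and 3 higher. The median log2 fold change was -0.38, and summed levels were 577.6 to 591.6 CPM in parental and 491.6 to 502.7 CPM in persister libraries. The largest falls were those of PEX11A (-0.96) and CAT (-0.82), and the genes called higher were PEX26 (0.38), PXMP2 (0.25) and PEX5 (0.22). The part of that difference in the RNA levels of the peroxisomal enzymes was not tested.

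The RNAs of the subunits of the electron transfer flavoprotein changed unevenly. ETFB (chromosome 19, 51345169 to 51366388), the beta subunit, had 90.5, 100.2 and 95.4 CPM in parental and 43.9, 49.0 and 51.0 CPM in persister libraries. The groups were far apart, with a log2 fold change of -0.99 (SE 0.0596, adjusted p = 1.07e-07). ETFA (chromosome 15, 76188555 to 76311730), the alpha subunit, had 142.1, 134.4 and 135.8 CPM in parental and 107.6, 107.1 and 108 CPM in persister libraries, a log2 fold change of -0.35 (SE 0.0372, adjusted p = 8.82e-06). ETFDH (chromosome 4, 158671968 to 158710742), the ubiquinone oxidoreductase that accepts their electrons, was higher, with 17.2, 16.4 and 17.1 CPM in parental and 20.4, 21.5 and 19.6 CPM in persister libraries, a log2 fold change of 0.28 (SE 0.0585, adjusted p = 0.00142). For ETFA and ETFDH, too, the groups did not overlap.

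Per length, ETFB stood at 0.886, 1.02 and 0.914 times the level of ETFA in parental and at 0.559, 0.598 and 0.649 times in persister libraries. The means of this ratio were 0.939 ± 0.0692 and 0.602 ± 0.0452 (SD, n = 3, exact permutation p = 0.1), and the groups were apart. These levels count every annotated transcript. In ETFA 62.3% to 69.6% of the counts lay on transcripts annotated as targets of nonsense-mediated decay, and in ETFB 0%. The ratio of ETFDH to ETFA went the other way, from 0.0753, 0.0734 and 0.072 to 0.108, 0.115 and 0.104, again without overlap. The RefSeq windows of the flavoprotein subunits (GRCh38.p14, both minus strand, chr15:76311420-76311719 and chr19:51366339-51366638) are shown because the RNAs of these subunits fell by different amounts. Capitals mark CCAAT on either strand.
ETFA: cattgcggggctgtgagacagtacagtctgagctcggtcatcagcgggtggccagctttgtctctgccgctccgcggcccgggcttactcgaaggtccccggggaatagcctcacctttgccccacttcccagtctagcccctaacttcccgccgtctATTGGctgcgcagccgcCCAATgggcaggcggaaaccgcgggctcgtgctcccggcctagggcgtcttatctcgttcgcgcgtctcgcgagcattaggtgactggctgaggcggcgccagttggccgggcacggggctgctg
ETFB: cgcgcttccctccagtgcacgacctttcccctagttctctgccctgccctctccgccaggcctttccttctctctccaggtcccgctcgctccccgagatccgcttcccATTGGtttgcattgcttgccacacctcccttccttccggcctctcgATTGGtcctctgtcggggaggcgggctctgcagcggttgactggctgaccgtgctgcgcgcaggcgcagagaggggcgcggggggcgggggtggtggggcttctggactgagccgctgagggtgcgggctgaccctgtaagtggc
Each window holds a pair of matches, at 92 and 75 bases before the start in ETFA and at 141 and 95 bases before it in ETFB. Transcripts starting within 100 bases of these sites took on average 95.1% of the ETFA counts in parental and 95.9% in persister libraries, and 98.5% and 97.8% of the ETFB counts.

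**Figure D4:**
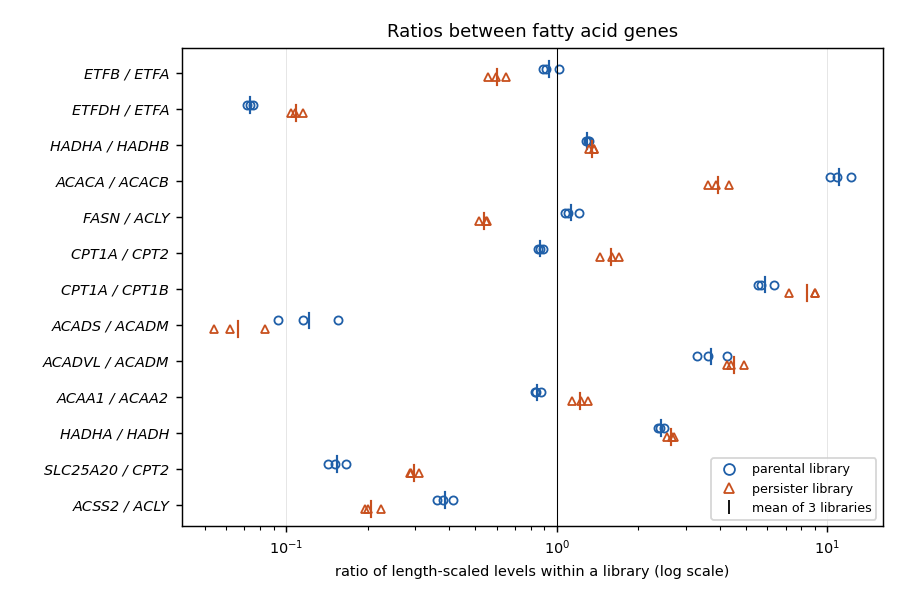
Ratio between the length-scaled levels of pairs of fatty acid genes within each library (logarithmic axis), with circles for 3 parental and triangles for 3 persister libraries and a short line at each mean. The ratio of ETFB to ETFA lay between 0.886 and 1.02 in parental and between 0.559 and 0.649 in persister libraries, and that of ACACA to ACACB fell from a mean of 11.1 to 3.95. Levels count every annotated transcript of a gene, also those annotated as targets of nonsense-mediated decay.

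On the length-scaled scale (transcript counts per annotated length, scaled to a common sum), the order of the genes within a group could be read. In parental cells ACADVL was at 224 ± 15.4, ETFA at 219 ± 6.15 and ETFB at 206 ± 13.6 (SD, n = 3), neighbours whose ranges over libraries overlapped, and HADHA followed at 138 ± 3.03. In persister cells ACADVL at 232 ± 4.22 and ETFA at 178 ± 3.15 led, while ETFB at 107 ± 6.44 lay below ECHS1 (133 ± 4.11), HADHA (121 ± 3.52), ECI1 (119.5 ± 3.73) and ACLY (118 ± 4.70). FASN went from 128 ± 12.8 to 63.2 ± 0.938 and ACLY from 113 ± 3.84 to 118 ± 4.70, so FASN was 1.12 ± 0.0761 times ACLY in parental and 0.538 ± 0.0194 times in persister cells, with no overlap between the groups. ACSS2 stood at 0.385 ± 0.0266 times ACLY in parental and 0.206 ± 0.0153 times in persister cells, also apart. Low levels, in parental and persister cells in turn, were found for SLC25A20 (5.77 ± 0.511 and 8.84 ± 0.158), EHHADH (5.05 ± 0.329 and 5.71 ± 0.877) and ACACB (3.91 ± 0.356 and 6.80 ± 0.579).

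At the level of single transcripts 164 transcripts of the 39 genes were tested, and 10 were changed, 9 of them lower, beside 7.8% of all 54499 transcripts tested. The lower ones were FASN-201 (log2 fold change -1.19), ACADS-201 (-1.21), ACSS2-202 (-1.04), ETFB-201 (-1.03), ACACA-231 (-0.88), DECR1-204 (-0.52), HADH-201 (-0.46), ETFA-201 (-0.40) and HADHB-201 (-0.30). The higher one was CPT1A-201, at 0.64 (adjusted p = 0.00262), and it held 86.86% of the CPT1A transcript counts. No transcript of the 39 genes was called higher with the replicate block, without parental replicate 3, or when any of the 3 persister libraries was left out. Each of the 10 was the most counted transcript of its gene, and each moved in the direction of its gene. The count fell when single libraries were left out. It was 3 without parental replicate 3 or without persister replicate 3, and 4 without persister replicate 1. It was 5 without parental replicate 2, 6 without persister replicate 2 and 7 without parental replicate 1. Calls over all transcripts tested fell as well, from 4252 to 1549, 1601, 1895, 2186, 1703 and 2649 in the same order of omissions.

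The regulators gave no call. PPARA, the nuclear receptor that switches on oxidation genes in liver and muscle, had 81.3, 83.9 and 86.5 CPM in parental and 80.9, 71.4 and 78.1 CPM in persister libraries. These groups were narrowly apart, and the log2 fold change of -0.13 had an adjusted p of 0.0451. Only 48.84% of the gene counts of PPARA were found on its annotated transcripts, and with gene counts summed from transcripts the sign turned, to 0.31 (adjusted p = 0.0149). PPARGC1A, a coactivator of mitochondrial genes, was not tested, with counts of 1, 1 and 1 in parental and 0, 1 and 2 in persister libraries.

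RefSeq windows were found for 31 of the 39 genes, 58 windows in all. FASN, CPT1B, ACOX2, ETFDH, OXSM, ACAA1, EHHADH and DECR1 had none. The CCAAT box (CCAAT, both strands) occurred in 13 of the 58 windows, or 22.4%, and in 34.6% of all 35116 windows of the table. The sterol regulatory element (TCACNCCAC, both strands) occurred in a window each of ACSL1 and ACSL6 and in 1.13% of all windows, and no counted ACSL1 transcript began within 100 bases of the start of that ACSL1 window. The E-box CACGTG occurred in windows of ACAD9 and PPARGC1A (7.26% of all windows). The NRF1 element (GCGCA followed directly by TGCGC) occurred in a PPARA window (1.24% of all) and the amino acid response element (TGATGNAA) in an HSD17B4 window (3.62% of all). The estrogen-related receptor element (TCAAGGTCA, 0.353% of all windows) and the PPAR direct repeat (AGGTCA repeated after any base, 0.0228% of all) matched none of the 58 windows. A match is a run of letters and not a shown binding site, and a missing match says only that the letters are not in the window.

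Around these 39 genes, 118 other genes of fatty acid metabolism were examined, of which 103 were tested, 49 were lower and 18 were higher, with a median log2 fold change of -0.25. Among 14 tested regulators of lipogenesis 6 were lower and 2 higher. SREBF1, the transcription factor that drives FASN and ACACA in many cells, went from 257 ± 20.8 to 56.3 ± 2.86 CPM (SD, n = 3, log2 fold change -2.19), NR1H3, the liver X receptor alpha, changed by -1.67 and MLXIPL, a sugar-sensing factor, by -1.34. Genes that supply citrate and NADPH had 5 members lower and 2 higher of 10, led by PGD (-0.88), IDH1 (-0.84) and SLC25A1 (-0.74), the last the mitochondrial citrate carrier. In the mitochondrial synthesis and lipoylation group 5 of 9 were lower and 1 was higher, with HSD17B8 at -1.53, LIAS at -0.80 and MECR at -0.56.

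Other acyl-CoA synthetases and uptake genes had 6 members lower and 4 higher of 15, among them SLC27A5 (-1.43), SLC27A1 (-1.34) and the fatty acid-binding protein FABP5 (1.24). Further oxidation enzymes and transporters had 11 lower and 2 higher of 22, with the peroxisomal reductase PECR at -1.09, the carnitine importer SLC22A5 at 1.00 and the carnitine acetyltransferase CRAT at -0.55. SLC22A5 rose from 12.9 ± 1.08 to 25.9 ± 1.05 CPM (SD, n = 3). The acyl-CoA thioesterases had 3 lower and 1 higher of 8, with THEM4 at -0.75. Lipid droplet and lipolysis genes had 8 lower and 3 higher of 14, with the droplet protein PLIN5 at -1.58, the lipase inhibitor G0S2 at 1.56 and the triglyceride-making DGAT2 at 1.41. The PPAR family and its targets had 5 lower and 3 higher of 11, with VLDLR at 2.04, the pyruvate dehydrogenase kinase PDK4 at -1.68 and PPARGC1B at 1.17. All these single values passed the limit in the edgeR test. The counts of these lists stand beside 28.7% higher and 28.1% lower among all genes tested, and no list was tested against those shares.

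For comparison with the neighbouring pathways, the desaturases and elongases had 9 of 17 tested genes lower and 4 higher with a median log2 fold change of -0.26, and cholesterol synthesis had 13 of 24 lower and 1 higher with a median of -0.26. The synthesis arm had 3 of 7 lower and 1 higher and the oxidation arm 11 of 25 lower and 7 higher, each with a median of -0.16. Falls of at least 1.5-fold were called for 3 synthesis and 2 oxidation genes, and rises of that size for 1 of each. Whether these shares differ between the pathways, or from those of all genes, was not tested.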

How the data were processed

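Poly-A RNA of 6 libraries, 3 parental and 3 persister, was sequenced by the authors in paired reads of 75 bases, trimmed with bases2fastq 1.1.0, filtered with FASTP 0.23.3 and assigned with kallisto 0.46.1 to Ensembl transcripts (release 96) of GRCh38.p13. Versions are from the paper's methods and the submitters' processing notes, and whether the counting used strand is not given in the sources used here. The authors deposited estimated counts as whole numbers, without normalization, per gene symbol and per transcript. Libraries of another laboratory, which the paper added to these, were not analysed here.

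Groups and replicate numbers came from the sample labels. Of 36459 symbols 27685 matched a current gene symbol, and all 39 genes were found in GENCODE 44 (GRCh38). Gene counts were filtered with filterByExpr, scaled by TMM and tested with edgeR 4.0.16 (glmQLFit and glmQLFTest, no block, R 4.3.3), with Benjamini-Hochberg adjustment over all genes tested and a limit of 0.01. CPM are counts scaled to a common library size with the TMM factors. Standard errors were obtained as |log2 fold change| over the root of its F statistic. Transcripts were tested likewise and their usage with diffSpliceDGE. Length-scaled levels divide transcript counts by annotated length. Ratios and shares were compared by two-sided exact permutation tests over libraries, which cannot give less than 0.1 with 3 against 3. Libraries of one group differed by more than counting error (chi-square per degree of freedom 3.41 to 20), so the spread between replicates sets the precision. Depth was 29476725 to 34893782 gene counts a library.

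In simulated counts with 200 features changed by 1 on the log2 scale, 90% of changed genes were recovered with 1.1% of calls wrong (14492 genes), 69% of transcripts with 2.13% wrong (52692 transcripts) and 66.5% of usage changes with 2.21% wrong (10400 genes). Every simulated feature had the same dispersion of 0.01, and no error in assigning reads to transcripts was simulated. In the libraries 8307 genes were called and transcript shares varied within groups, so these rates do not carry over to them. Alternatives were DESeq2 1.42.0, limma-voom 3.58.1, a replicate block, omission of each library, other limits, scalings and filters, and gene totals built from the transcript table. All 39 genes were named by rule, and of each further list up to 3 called genes with the largest change, with SLC22A5 levels and the markers of the label check. PEX11A, CAT, PEX26, PXMP2 and PEX5 were added after their values were seen. The genes, lists and motifs were chosen with earlier results of these data known. The p-values measure the spread between these libraries, and the persister libraries are pools of cultures. Figures were drawn with matplotlib 3.10.9.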

Additional observations from a re-analysis of the deposited data

How the results depend on the processing

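Over the 35 tested genes and the alternative fits, 524 log2 fold changes were recomputed at the limit of 0.01. Of these 504 kept their direction and their side of the limit, 11 lost the call, 5 gained it and 4 changed sign, and 21 of the 24 called genes kept their call in every such fit that gave them a value (the exceptions are ACADM, ECHS1 and ACOX3). ACADL had no value under the stricter filter, which removed it. No called gene changed sign. The sign changes were those of ACLY without parental replicate 2 (0.01, with a range of -0.022 to 0.01 over the omitted libraries), ACAD9 with upper-quartile scaling (-0.01) and with library size only (-0.021), and PPARA with gene counts summed from transcripts (0.31). The cause was not tested.

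With a fold of at least 1.5 required in addition, 3501 genes were changed in all, 3 in the oxidation arm and 32 of the other fatty acid genes, by construction fewer than without it. Leaving out a library gave 7054 to 8407 changed genes, 15 to 19 in the oxidation arm, 4 in the synthesis arm and 63 to 67 of the other fatty acid genes. Changed transcripts of the 39 genes numbered 3 to 7 when a library was left out and 23 at a limit of 0.05. With the stricter filter (at least 1 CPM in all 6 libraries) they were 16 of 78 tested. Over all transcripts, 1549 to 2649 were changed when a library was left out, and 5534 of 27377 with the stricter filter. Upper-quartile scaling and library size alone moved the median of all genes to -0.049 and -0.059 and the split to 3726 higher and 4562 lower and to 3604 higher and 4652 lower.

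The correlation of deviations from the group means between libraries of the same number was 0.161, 0.031 and 0.025, and not every library correlated best with its own number. With 3 libraries a group, these values can neither show nor exclude a pairing by replicate number. With the replicate block 8671 genes were changed, 19 of them in the oxidation arm. Of the transcripts of the 39 genes 3 were changed, beside 813 of all 54499 transcripts tested. ACSL6, CPT1C, ACOX2 and PPARGC1A failed the expression filter, and without it ACOX2 alone of these was called (adjusted p = 0.00800). ACADL rests on at most 51 counts a library.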

Other observations

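For 3 of the 35 tested genes, HADHA, DECR1 and ETFA, the transcript with the most counts was annotated as a target of nonsense-mediated decay, and for 31 it was protein-coding. Such transcripts together took 57.7%, 58.7% and 53.4% of the HADHA transcript counts in the parental and 50.7%, 54.5% and 56.6% in the persister libraries (exact permutation p = 0.3). For ETFA the shares were 67.4%, 69.6% and 65.2% in parental and 68.0%, 62.3% and 62.4% in persister libraries (exact permutation p = 0.3). In DECR1 they were 59.1%, 65.0% and 63.4% in parental and 62.1%, 59.2% and 62.4% in persister libraries (exact permutation p = 0.6). The groups overlapped for all 3 genes. Of the 35 tested genes 3 others had groups apart (exact permutation p = 0.1 each, the smallest possible and the value of any full separation). The share of all genes with such a separation was not computed, so these 3 genes are described only. In ACSS2 the share of such transcripts was 3.25%, 7.46% and 7.21% in parental and higher, at 11.3%, 12.9% and 12.5%, in persister libraries. In CPT1B it was 3.09%, 6.25% and 5.0% against 7.92%, 7.87% and 7.3%, and in CPT2 it was 0.434%, 0.905% and 0.388% in parental libraries and 0% in each persister library.

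The division of reads between near-identical transcripts varied between libraries of the same group for some genes whose gene counts were steady. ACACB-201 took 0%, 87.16% and 0% of the ACACB transcript counts in the parental libraries and 0%, 15.17% and 13.46% in the persister libraries. ACSL5-203 took 49.65%, 82.74% and 82.47% in the parental and 97.14%, 49.64% and 0.5958% in the persister libraries. These shares were estimated by kallisto. The CPM and fold changes of ACACB and ACSL5 rest on gene counts, while the length-scaled levels of ACACB and its ratio to ACACA rest on these transcript counts, with annotated lengths of 9368 bases for ACACB-201 and 9247 bases for ACACB-202, the transcript with the most ACACB counts.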
